A study of Mus musculus with 21 samples.

Results

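The 36 genes described here encode proteins that carry a cell through mitosis: the cyclins and kinase that start it, the kinases, checkpoint and kinetochore proteins that move the chromosomes, and the motors and scaffold proteins that finish division. They were listed by name, with no measured value in the rule but with earlier results of these data known, out of 20141 genes that the arrays could name, and all 36 were on the arrays, on 52 probes. A gene with several probes is represented by its brightest on average across the 21 arrays, and every probe of Ccnb1 is shown. RNA came from MIN6m9, a subclone of the mouse insulinoma-derived beta cell line MIN6, and was hybridised to one-colour Agilent arrays in 2 experiments. In the first, wild-type cells received palmitate (a saturated fatty acid) or oleate (a monounsaturated one), each at 400 uM for 48 h, or were left untreated, with 3 arrays per group. In the second, cells carrying Fv2E-PERK, a form of the stress kinase PERK that dimerises when the small molecule AP20187 is added, were exposed to AP20187 at 1 nM (6, 12, 24 or 48 h) or mock-treated with ethanol, the vehicle the labels name for these cells. Wild-type cells also received a mock treatment, and each of these 6 groups had 2 arrays. The sources used here do not give the harvest times of untreated and mock cells, or say whether Fv2E-PERK cells are a single clone. No wild-type array with AP20187 was used.

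A dividing cell enters mitosis when cyclin B binds CDK1 and the phosphatase CDC25C removes its inhibitory phosphates. Aurora and Polo-like kinases then build the spindle, kinetochores attach the chromosomes to it, and the spindle checkpoint holds back the anaphase-promoting complex (APC/C) until every chromosome is attached. Most of these genes are transcribed late in the cell cycle, and repressor and activator complexes built on the MuvB core (DREAM, MYBL2-MuvB and FOXM1) act on them through the cell cycle genes homology region (CHR), often beside CCAAT boxes bound by NF-Y. PERK, the kinase activated in the second experiment, slows translation in the integrated stress response.

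Because the members moved together in several comparisons, their promoters were searched for both elements. RefSeq windows (build GRCm38.p6, 250 bases before to 50 after the start of the gene) were found for 30 of the 36 members. A CHR core, TTTGAA or TTCGAA on either strand, lay in a window of 23 of the 30 (76.7%), against 21.7% of all 27025 genes with a window (19.2% of their 32851 windows). In 21 members (70%) the core began at most 50 bases before the start, or after it, against 6.12% of all genes. CCAAT, on either strand, was found in 23 of 30 members (76.7%) and in 41.1% of all genes, and both elements in 20 members (66.7%) and in 8.61% of all genes. No CHR core overlapped a CCAAT box in the sequences shown. The sequences from 120 bases before the start to 12 bases into the gene follow for the 5 members with both elements whose levels changed most at 48 h of AP20187, with CHR cores and CCAAT boxes (or their reverse complements, TTCAAA and ATTGG) in capitals. A match of letters is a description and not evidence of binding.
Cenpf (chr1:189688075-189688206, minus strand): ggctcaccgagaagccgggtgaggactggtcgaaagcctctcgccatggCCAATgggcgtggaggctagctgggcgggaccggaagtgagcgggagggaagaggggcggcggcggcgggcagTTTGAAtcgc
Kif11 (chr19:37376262-37376393, plus strand): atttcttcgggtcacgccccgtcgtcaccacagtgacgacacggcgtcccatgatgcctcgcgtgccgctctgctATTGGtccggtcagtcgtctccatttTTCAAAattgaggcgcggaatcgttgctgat
Cdk1 (chr10:69352901-69353032, minus strand): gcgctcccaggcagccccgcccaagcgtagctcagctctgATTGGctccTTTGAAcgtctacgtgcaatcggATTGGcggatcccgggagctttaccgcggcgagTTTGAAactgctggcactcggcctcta
Ccnb2 (chr9:70421543-70421674, minus strand): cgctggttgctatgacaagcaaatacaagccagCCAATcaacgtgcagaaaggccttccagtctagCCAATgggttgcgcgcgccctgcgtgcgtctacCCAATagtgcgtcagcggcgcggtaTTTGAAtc
Prc1 (chr7:80294331-80294462, plus strand): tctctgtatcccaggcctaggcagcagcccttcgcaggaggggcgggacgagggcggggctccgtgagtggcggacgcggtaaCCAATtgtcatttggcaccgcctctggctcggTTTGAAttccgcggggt
Counting the first transcribed base as 1, the CHR core nearest the start began at 3 in Cenpf, -19 in Kif11, -15 in Cdk1, 5 in Ccnb2 and -5 in Prc1. A CCAAT box began upstream of it in each of the 5, at -71, -45, -48, -21 and -37 for the nearest box, in the same order.

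Values are log2 signals minus the 75th percentile of their array, so 1 unit is a 2-fold difference between samples, and levels of different probes are not compared. The signal at that percentile ran from 335.8 to 459.1 on the fatty acid arrays and from 380.5 to 823.3 on the PERK arrays, highest at 48 h of AP20187 (823.3 and 739.3, against 463.4 and 391.0 in mock). Scaling by the 7 spike-in control probes in place of the percentile moved the median change of all entries. Against mock it went from -0.23, -0.19, -0.20 and -0.07 at 6, 12, 24 and 48 h to 0.44, 0.54, 0.73 and 0.52, and with palmitate against untreated from -0.05 to 0.13. It went down between 24 and 48 h, from 0.04 to -0.30, and moved by under 0.1 for oleate and between 6 and 48 h. Changes are percentile-scaled unless spike-in scaling is named, and its counts stand beside the main ones. All fatty acid arrays shared a slide except palmitate replicate 3. In the PERK experiment the wild-type mock and 48 h arrays shared 1 slide, and the Fv2E-PERK mock, 6, 12 and 24 h arrays the other. Markers of other cell types went against the beta cell label on the fatty acid arrays. Of 9 heart muscle markers, 8 or 9 were well above background on every untreated and oleate array, with a summed level of 12.3 to 16.1 times the 75th percentile signal, against 1 to 4 markers and 0.221 to 0.932 on palmitate arrays. Of 20 skeletal muscle markers, 19 were well above background on palmitate replicates 1 and 2 (summed level 35.2 and 35.7) and 8 to 10 on the other 7 arrays (4.53 to 7.86). Beta cell markers were well above background throughout, 10 to 12 of 12 on each of the 21 arrays. Of 9 acinar and duct markers, Ctrb1, Krt7 and Spp1 were well above background on all 21 arrays and each of the others on 1 array or none. The summed level of these 9 was 6.02 to 6.69 untreated, 5.17 to 5.4 with oleate and 9.49 to 11.4 with palmitate. Mesenchymal, endothelial and immune markers summed to 0.175 to 0.368 on every array.

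Nearly the whole set was lower with palmitate. Of the 35 members bright enough to test, 32 fell and none rose at an adjusted p under 0.05 (limma with Benjamini-Hochberg adjustment over all genes and unnamed entries tested). Over all entries tested, 12.6% fell, 7.42% rose and 20.1% changed in either direction. The members' median log2 change was -0.36, against -0.05 over all entries, and the falls ran from -0.20 to -0.58 (1.50-fold at most). In these bulk samples fewer cells in mitosis and less RNA per cell cannot be told apart. The heart muscle, skeletal muscle and acinar and duct markers above moved with the same comparison. Of 12 beta cell markers, 5 (41.7%) were called lower with palmitate and none higher, or 1 lower with spike-in scaling. The part of these marker lists in the members' falls was not tested. Without palmitate replicates 1 and 2, which carried the skeletal muscle signal, the members' median was -0.33. The lone remaining palmitate array, replicate 3, was on another slide than the untreated arrays, so treatment and slide cannot be told apart in that value.

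The largest fall was that of Birc5 (survivin), the subunit that brings the chromosomal passenger complex to centromeres. Its level was 6.05, 6.18 and 6.12 on the untreated arrays and 5.46, 5.54 and 5.60 on the palmitate arrays, a change of -0.58 ± 0.06 (SE, adjusted p = 5.5e-04). The palmitate arrays were all lower than the untreated ones, and the oleate arrays (6.05, 6.03 and 5.99) lay at or just below the untreated range. Its partners Cdca8 (borealin) and Incenp, the scaffold of the complex, fell by 0.44 and 0.43. Aurkb, the kinase of the complex, was well above background on no untreated or oleate array, and no fold is given for it.

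The APC/C activator Cdc20 read 5.39, 5.35 and 5.43 untreated and 4.83, 4.88 and 4.87 with palmitate, a change of -0.53 ± 0.05 (adjusted p = 4.2e-04). All 6 genes of the checkpoint and APC/C group fell: Cdc20, the APC/C ubiquitin-conjugating enzyme Ube2c (-0.36), and the checkpoint genes Mad2l1 (-0.34), Bub1 (-0.32), Ttk (-0.31) and Bub1b (-0.30). The 3 mitotic kinases fell too, Plk1 by 0.47, Aurka by 0.44 and the centrosomal kinase Nek2 by 0.39.

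All 5 genes of the cyclin-CDK group fell. Ccnb2 (cyclin B2) read 5.35, 5.43 and 5.37 untreated against 4.85, 4.93 and 4.89 with palmitate, a change of -0.49 ± 0.05 (adjusted p = 4.8e-04). The falls of the phosphatase Cdc25c (-0.36), Cdk1 (-0.30), Ccnb1 (-0.27) and Ccna2 (cyclin A2, -0.20) were smaller. The groups of Ccnb2 were separated by more than either group's own range.

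At the kinetochore, Cenpa, the histone variant that marks the centromere, read 3.70, 3.61 and 3.63 untreated and 3.11, 3.11 and 3.24 with palmitate (-0.50 ± 0.05, adjusted p = 9.3e-04). Ndc80 and Nuf2, which bind microtubules together, fell by 0.42 and 0.36, and the motor Cenpe by 0.40. Cenpf was the exception, at -0.20 ± 0.10 with overlapping groups and no call.

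Among the spindle factors, the microtubule-bundling gene Nusap1 showed the largest fall, from 3.55 and 3.63 on the untreated arrays that measured it (its spot was an outlier on the other) to 3.10, 3.06 and 2.93 (-0.56 ± 0.07, adjusted p = 0.0026). The others that fell were Kif11, the motor that separates spindle poles, and Kif2c, which takes microtubules apart at the kinetochore (-0.33 each), Hmmr (-0.33) and the Aurora A activator Tpx2 (-0.26). Kif4, a chromosome-bound motor, was at -0.16 with no call. All 5 cytokinesis genes fell: Racgap1 from 4.33, 4.44 and 4.23 to 3.80, 3.85 and 3.88 (-0.49 ± 0.06, adjusted p = 0.0017), and the motor Kif20a, Prc1, Anln and Kif23 by 0.44, 0.43, 0.43 and 0.32. Of the chromosome structure genes, the proliferation marker Mki67 fell by 0.23 and Top2a (topoisomerase II alpha) was at -0.20 with no call.

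**Figure D1:**
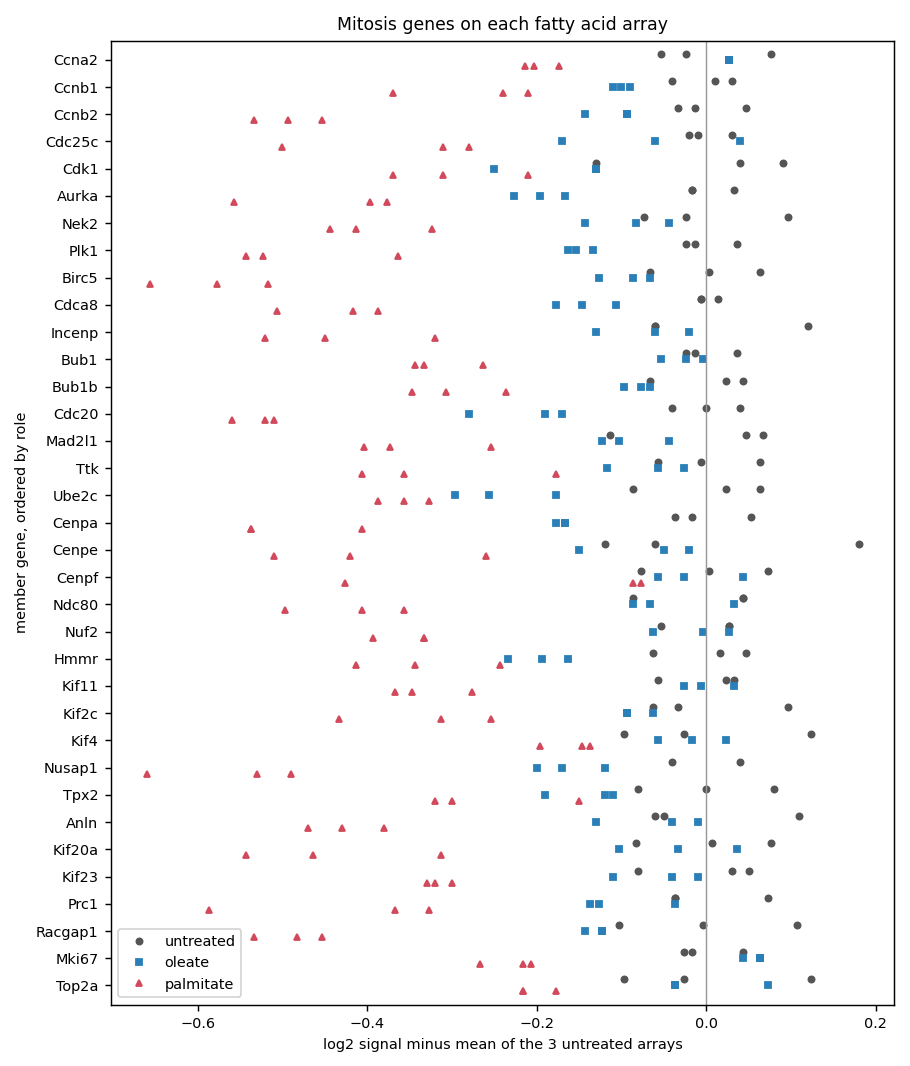
Log2 signal of the 35 tested members on each of the 9 fatty acid arrays, minus the mean of the 3 untreated arrays (x axis, log2 units); circles are untreated, squares oleate and triangles palmitate arrays. The palmitate triangles lie to the left of every untreated circle for 33 of the 34 members measured on all 3 untreated and 3 palmitate arrays, Cenpf being the exception. The members' median change was -0.08 with oleate and -0.36 with palmitate. For some members, such as Ube2c (-0.24 with oleate and -0.36 with palmitate), the oleate squares also lie left of the untreated circles.

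For 33 of the 34 members measured on all 6 arrays, every palmitate array was lower than every untreated array, which was so for 23.8% of all entries. The calls depended on the scaling. With spike-in scaling no member was called (median -0.17, against 0.13 over all entries), and none in the series matrix values (median -0.58, against -0.27). The members' median was 0.30 and 0.31 lower than that of all entries under those settings, and 0.31 lower in the percentile-scaled values.

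Oleate, at the same dose and time, called none of 35 members against untreated cells by limma, where 0.836% of all entries were called (0.334% higher and 0.503% lower). An unadjusted limma p under 0.05 was found for 9 members and for 3461 of the 21281 entries tested. The changes of 32 members lay below 0 and those of 3 above. The members' median was -0.08, against -0.05 over all entries. Ube2c (-0.24, from 4.93, 4.82 and 4.97 to 4.65, 4.61 and 4.73) stood furthest from 0. Over the 35 members the 95% intervals reached from -0.37 to 0.21. Tested directly, 25 of 35 members were lower with palmitate than with oleate and none higher (13.7% of all entries were called, 7.48% higher and 6.27% lower), with a median of -0.29. This count was 14 without oleate replicate 2, 15 without oleate replicate 1 and 16 without palmitate replicate 1. It was 0 with spike-in scaling (median -0.10, against 0.19 over all entries) and 0 in the series matrix values.

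During PERK activation the same genes separated, in the percentile-scaled values, into those that rose early and those that fell, and at 48 h most had fallen. With spike-in scaling few were called lower than mock at any time. At 6 h 19 of 36 members were higher than in Fv2E-PERK mock cells and 8 lower. That is 52.8% and 22.2% of the members, where 24.9% of all entries were called higher and 40.0% lower (64.9% in all). The members' median was 0.31, against -0.23 over all entries. At 12 h 16 were higher and 6 lower, with 27.2% of all entries higher, 40.5% lower and 67.7% called. At 24 h 14 were higher and 10 lower, with 27.0% of all entries higher, 40.4% lower and 67.4% called. With spike-in scaling, which put the median of all entries at 0.44, 0.54 and 0.73, the splits were 27 higher and 0 lower, 28 and 0, and 29 and 1 at these times. With quantile normalization the 6 h split was 22 higher and 3 lower. With so many entries called at each time, a call alone does not set a member apart.

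The clearest riser was Kif23, the motor subunit of centralspindlin, which builds the midbody. Its level was 0.63 and 0.47 in mock, 1.77 and 1.77 after 6 h, 1.85 and 1.79 after 12 h, 2.01 and 1.95 after 24 h, and 0.81 and 0.97 after 48 h. It was 1.22 ± 0.09 above mock at 6 h (adjusted p = 1.6e-05), 1.43 ± 0.09 above at 24 h (adjusted p = 6.1e-06) and still 0.34 ± 0.09 above at 48 h (adjusted p = 0.013). Both arrays of each time lay above both mock arrays.

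Kif4 rose from 0.59 and 0.38 in mock to 1.37 and 1.48 at 6 h and 1.81 and 1.86 at 24 h, and read 1.22 and 1.13 at 48 h. Its changes were 0.94, 1.35 and 0.69 at these times, and it was the member furthest above mock at 48 h. Kif2c read -0.62 and -0.45 in mock, 0.37 and 0.30 after 6 h, 0.71 and 0.66 after 24 h, and -0.36 and -0.31 after 48 h, where its change of 0.20 was not called. These motors were joined by Hmmr and Tpx2, which rose by 0.28 and 0.35 at 6 h and by 0.88 and 0.57 at 24 h.

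Cdc25c, the activator of CDK1, read -0.17 and -0.24 in mock. It reached 0.88 and 0.78 after 6 h, 0.80 and 0.89 after 12 h and 0.89 and 0.90 after 24 h, and returned to 0.07 and 0.06 by 48 h. Cdk1 itself went the other way, from 3.90 and 3.74 in mock to 3.37 and 3.15, 3.11 and 3.32, 2.92 and 2.92, and 2.79 and 2.67 at the same times. The changes at 24 h were 1.1 ± 0.08 for Cdc25c (adjusted p = 1.1e-05) and -0.89 ± 0.11 for Cdk1 (adjusted p = 1.6e-04), although with spike-in scaling Cdk1 was at 0.04 at 24 h. Ccnb2 fell beside Cdk1, from 4.87 and 4.79 in mock to 4.45 and 4.61 after 6 h, 4.04 and 4.0 after 24 h and 3.75 and 3.77 after 48 h. Its change at 24 h was -0.80 ± 0.08, or 0.13 with spike-in scaling. Ccna2 and Ccnb1 were not called at 6, 12 or 24 h, although with spike-in scaling both were called higher at each (0.81 and 0.73 at 24 h).

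The chromosomal passenger complex divided the same way. Birc5 fell from 5.67 and 5.69 in mock to 5.25 and 5.21 after 6 h, 4.68 and 4.73 after 12 h, 4.48 and 4.43 after 24 h and 4.54 and 4.46 after 48 h, changes of -0.46, -0.98, -1.23 and -1.19. With spike-in scaling it was at 0.21, -0.25 and -0.30 at 6, 12 and 24 h, none of them called. Cdca8 rose instead, from 4.41 and 4.45 to 5.24 and 4.97 at 6 h, and was back at 4.53 and 4.36 at 48 h.

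Incenp rose first, from 4.56 and 4.54 in mock to 5.14 and 5.15 at 6 h, and then fell to 3.92 and 3.74 at 24 h and 3.56 and 3.53 at 48 h (0.59, -0.73 and -1.01; the 24 h value was 0.21 with spike-in scaling). The Aurkb probe was dim. It read -2.67 and -2.73 in mock, -3.39 and -3.52 after 6 h, -4.40 and -4.94 after 24 h, and -5.54 and -5.14 after 48 h, where no array was well above background. Its 48 h level was therefore at least 4.77-fold lower than mock (adjusted p of the fit 5.4e-05), against a fitted change of -2.64 ± 0.26.

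Aurka and Plk1, which drive centrosome maturation and mitotic entry, peaked at 6 h. Aurka read 3.90 and 3.81 in mock, 4.54 and 4.51 after 6 h, 4.04 and 3.95 after 12 h, 3.61 and 3.59 after 24 h, and 3.09 and 3.01 after 48 h. Its change was 0.67 ± 0.07 at 6 h (adjusted p = 1.0e-04) and -0.26 ± 0.07 at 24 h, where Aurka was called higher with spike-in scaling (0.68). At 48 h the change was -0.81 ± 0.07 (adjusted p = 3.9e-05), or -0.22 with spike-in scaling, not called. Plk1 was 0.56 above mock at 6 h and 0.54 below it at 48 h (0.05 with spike-in scaling at 48 h).

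At the kinetochore, Ndc80 read 1.36 and 1.28 in mock, 2.29 and 2.14 after 6 h, 2.34 and 2.30 after 24 h and 1.52 and 1.54 after 48 h, a rise of 0.90 at 6 h and 1.00 at 24 h. Cenpf, a large kinetochore protein, was lower at every time, reading -2.21 and -2.48 in mock, -3.15 and -2.80 after 6 h, -3.29 and -3.31 after 24 h, and -3.89 and -3.79 after 48 h. Its changes were -0.63 ± 0.17 at 6 h and -0.96 ± 0.17 at 24 h (0.04 and -0.03 with spike-in scaling, neither called). Cenpa rose by 0.45 at 6 h and Nuf2 by 0.47, and neither was called at 24 h (1.03 and 1.29 with spike-in scaling, both called).

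Among checkpoint genes Bub1b rose from 0.83 and 0.74 in mock to 1.66 and 1.55 at 6 h and 1.49 and 1.46 at 24 h (0.82 and 0.69), and Cdc20 from 4.92 and 4.87 to 5.59 and 5.41 at 6 h (0.61). Bub1 and Ttk were called higher at 12 h (0.48 and 0.67) and at 24 h (0.45 and 0.61). With spike-in scaling both were called at 6 h as well (0.76 and 1.04). Ube2c fell to -0.87 at 12 h and -0.77 at 24 h (0.17 with spike-in scaling at 24 h). Top2a read 2.52 and 2.51 at 6 h against 3.37 and 3.20 in mock (-0.77, or -0.11 with spike-in scaling). It was at -0.31 at 24 h (0.62 with spike-in scaling, called higher) and at -0.74 at 48 h.

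**Figure D2:**
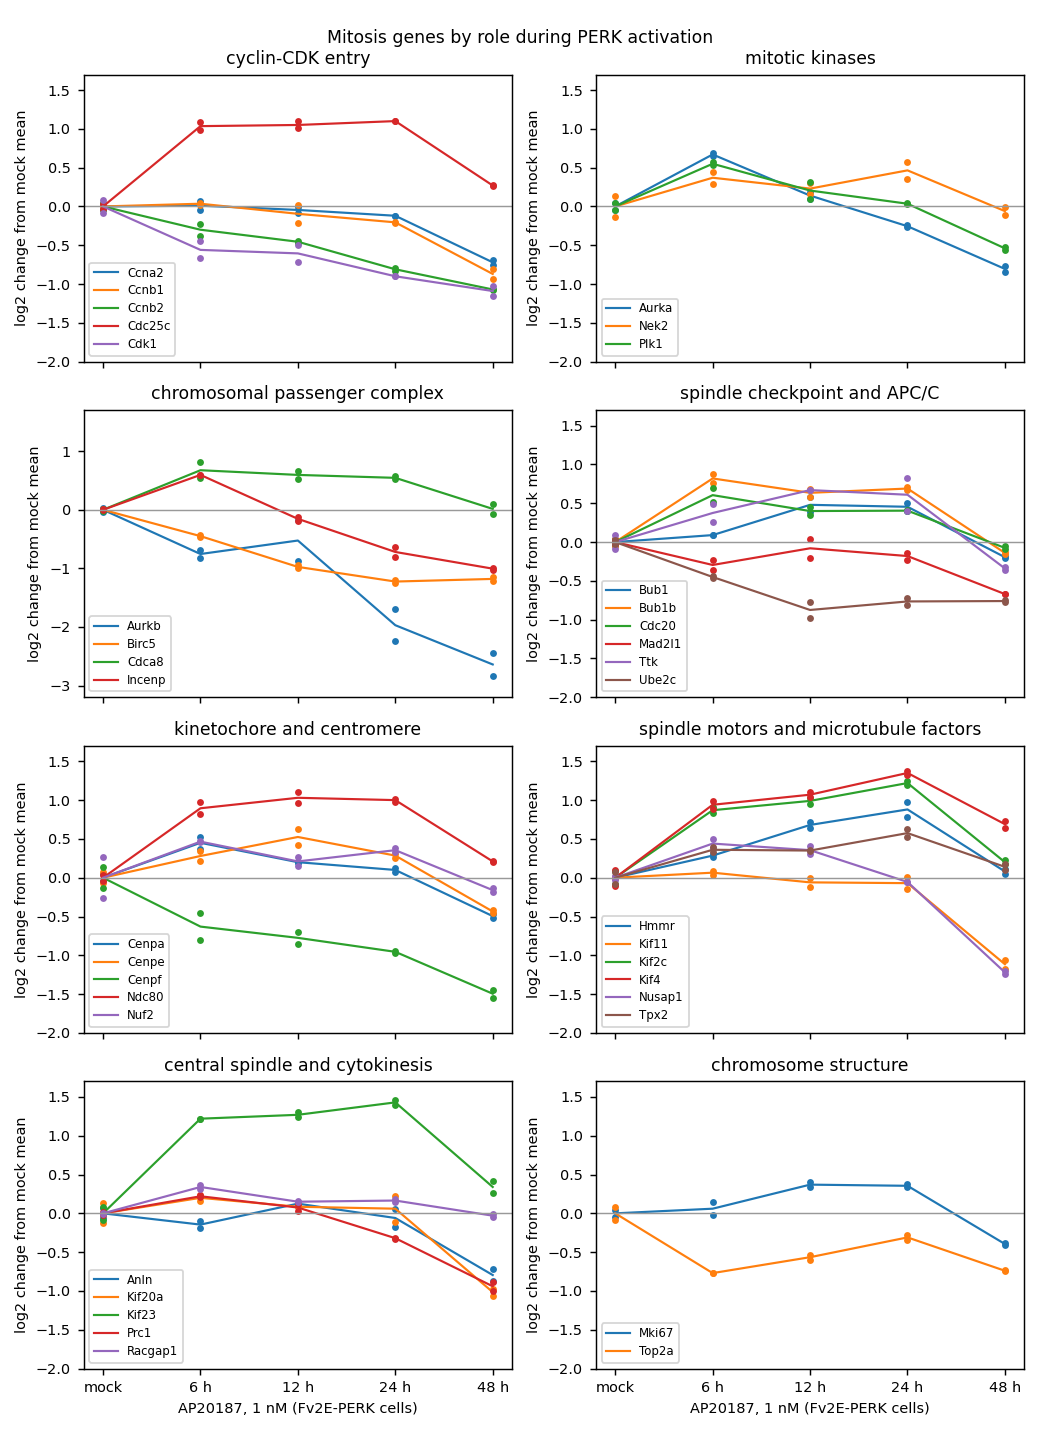
Change in log2 signal from the mean of the 2 Fv2E-PERK mock arrays (y axis) in mock cells and after 6, 12, 24 and 48 h of 1 nM AP20187 (x axis, evenly spaced), in 8 panels by role; points are single arrays and lines join group means. Kif23, Kif4, Kif2c, Cdc25c and Ndc80 lie near or above 1 at 24 h, and Birc5, Cdk1, Ccnb2 and Cenpf fall from 6 h on. With spike-in scaling these last 4 lie above 0 at 6 h, and none is called lower at 6, 12 or 24 h. The lines of nearly all members turn down between 24 and 48 h.

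At 48 h 21 of 36 members (58.3%) were lower than in mock and 3 (Kif4, Kif23 and Cdc25c) were higher. Over all entries 34.6% were lower, 27.2% higher and 61.8% called. The members' median was -0.52, against -0.07 over all entries. The split was 6 higher and 19 lower with quantile normalization. With spike-in scaling the direction of the set turned, to 8 higher and 4 lower with a median of 0.07, where the median of all entries was 0.52. The 4 that were called lower under both scalings were Aurkb, Birc5 (-0.60 with spike-in scaling), Cenpf (-0.91) and Nusap1 (-0.63), and no other fall from mock at 48 h was called with spike-in scaling. In both scalings the members' median lay 0.45 below that of all entries. Mock and 48 h arrays were on different slides, which cannot be told apart from the treatment here. Against the wild-type mock arrays of the same slide, which differ in genotype, 19 members were lower and 8 higher at 48 h (36.3% and 27.5% of all entries, 63.8% in all), with a median of -0.27. With spike-in scaling that comparison gave 1 lower and 16 higher.

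After Aurkb the largest fall was that of Cenpf, at -1.5 ± 0.17 (adjusted p = 1.1e-04). Nusap1 fell from 3.32 and 3.27 in mock to 2.09 and 2.06 (-1.22 ± 0.09, adjusted p = 1.4e-05), after 3.79 and 3.68 at 6 h. Kif11 read 1.05 and 1.03 in mock, 1.08 and 1.13 after 6 h, 0.89 and 1.05 after 24 h, and -0.13 and -0.02 after 48 h. Its change at 48 h was -1.12 ± 0.08 (adjusted p = 1.4e-05), or -0.53 with spike-in scaling, not called. The fall lay between 24 and 48 h, whose arrays were on different slides.

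Kif20a kept near its mock level of 3.56 and 3.30 at 24 h, at 3.66 and 3.32, and read 2.46 and 2.37 at 48 h (-1.02). With spike-in scaling it was 0.99 above mock at 24 h, which was called, and at -0.43 at 48 h. Prc1, which bundles the central spindle, fell from 4.78 and 4.75 to 3.77 and 3.88 (-0.94) and the cytokinesis scaffold Anln from 3.99 and 3.86 to 3.05 and 3.21 (-0.80), and with spike-in scaling these were at -0.35 and -0.21. Racgap1, the partner of Kif23 in centralspindlin, was at -0.03 with no call (0.56 with spike-in scaling).

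In the cyclin-CDK group Cdk1 fell by 1.09, Ccnb2 by 1.07, Ccnb1 by 0.86 and Ccna2 by 0.72 at 48 h. With spike-in scaling they were at -0.50, -0.49, -0.28 and -0.13, none of them called. Of the checkpoint group, Ube2c (-0.76) and Mad2l1 (-0.67) fell, and Cdc20, Bub1, Bub1b and Ttk were at -0.08, -0.19, -0.14 and -0.34 with no call. With spike-in scaling Ube2c and Mad2l1 were at -0.17 and -0.08, and the other 4 at 0.51, 0.39, 0.44 and 0.24, none called. At the kinetochore Cenpa and Cenpe were lower by 0.50 and 0.44 (0.08 and 0.15 with spike-in scaling). Mki67 was at -0.40 (0.18 with spike-in scaling) and Top2a at -0.74 (-0.16).

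The time points were also compared directly. Mock levels do not enter these differences, although the mock arrays enter the shared estimate of the spread. Between 6 and 48 h 33 of 36 members fell and none rose, where 27.6% of all entries fell, 33.2% rose and 60.8% were called. The median of the members was -0.71 and that of all entries 0.10, and with spike-in scaling 24 members fell and none rose. The largest measured falls were those of Nusap1 (-1.65 ± 0.09, adjusted p = 6.0e-06), Incenp (-1.60 ± 0.10, adjusted p = 1.1e-05) and Aurka (-1.47 ± 0.07, adjusted p = 4.4e-06), with Aurkb at least 2.84-fold lower. Tpx2 (-0.22), Hmmr (-0.20) and Top2a (0.03) were not called. Between 24 and 48 h 31 members fell and none rose (23.1% of entries fell, 25.6% rose and 48.8% were called), and 30 fell with spike-in scaling. For 34 of 36 members both 48 h arrays were below both 24 h arrays, the exceptions being Birc5 and Ube2c, and this held for 36.5% of all entries. Between 6 and 12 h 3 rose and 5 fell (7.19% of entries rose, 7.50% fell and 14.7% were called), with 2 to 5 called when any 1 array of these times was left out and 0 with spike-in scaling. Between 12 and 24 h 7 fell and none rose (12.5% of entries fell, 15.0% rose and 27.5% were called), or 3 without 12 h replicate 2 and 1 with spike-in scaling. The 48 h arrays were on the other slide than the 6, 12 and 24 h arrays, and slide and time cannot be told apart here.

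**Figure D3:**
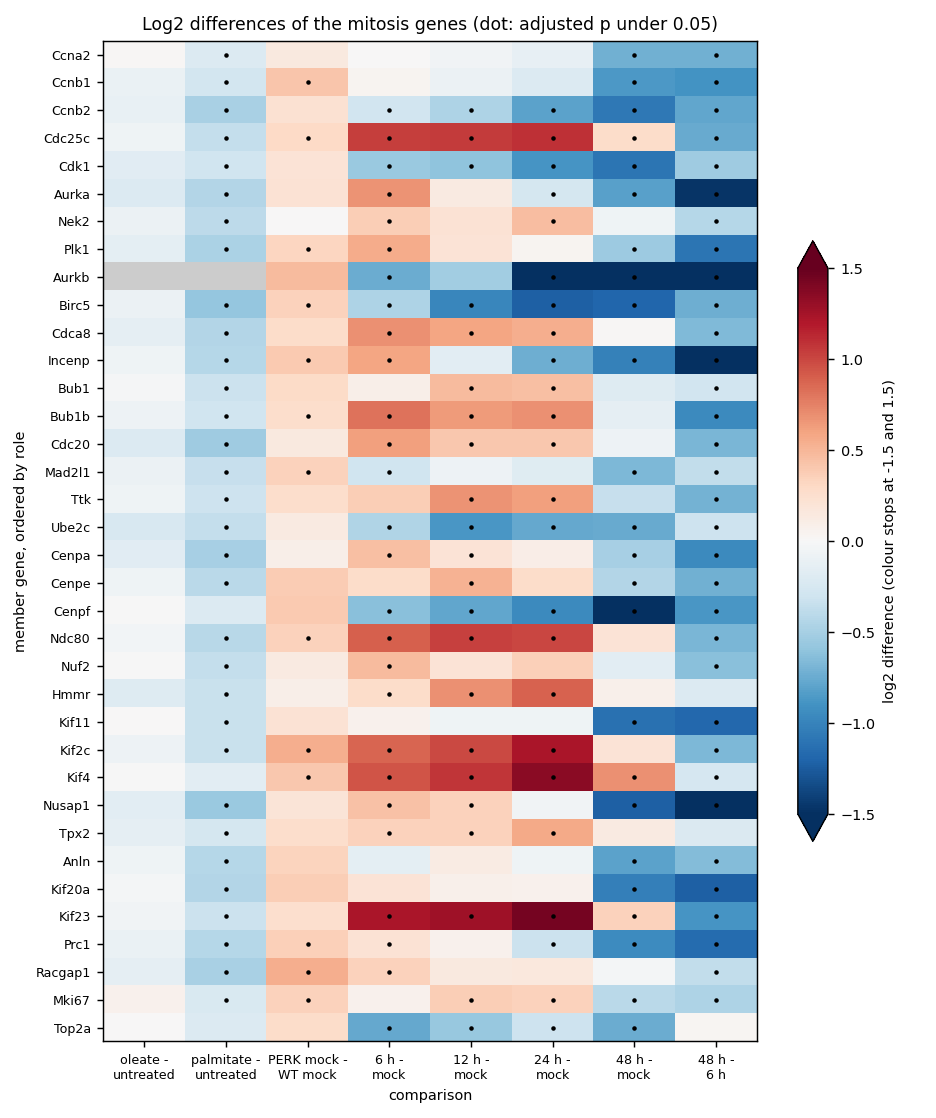
Log2 differences of the 36 members (rows, by role) in 8 comparisons (columns), from blue for lower to red for higher, with a dot where the adjusted p was under 0.05 and grey where Aurkb was not tested. The palmitate and 48 h against 6 h columns are blue for 35 of the 35 and 35 of the 36 members, the 6, 12 and 24 h columns hold both colours, and the 48 h against mock column is mostly blue in these percentile-scaled values, with a median that turns to 0.07 under spike-in scaling.

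Ccnb1, encoding cyclin B1, was read by 3 probes that did not move alike. The brightest, A_55_P2065671, read 3.78 and 3.78 in mock, 3.83 and 3.80 after 6 h, 3.57 and 3.58 after 24 h and 2.98 and 2.84 after 48 h. A_55_P1952256 read 0.93 and 0.90 in mock, 0.98 and 0.74 after 6 h, 1.67 and 1.56 after 24 h and 1.16 and 1.14 after 48 h. A_55_P2128668 read 0.53 and 0.30, 0.55 and 0.40, 0.96 and 1.05, and 0.47 and 0.51. At 24 h the first was at -0.21 without a call, while the others rose by 0.70 and 0.59. At 48 h the first fell by 0.86, and the others were at 0.24 and 0.07 without a call. Between 6 and 48 h the first fell by 0.90 and the second rose by 0.29, the sole member called in opposite directions by its own probes. With palmitate all 3 fell, by 0.27, 0.30 and 0.36. Which transcript ends the probes match was not determined here, so the direction of Ccnb1 at 48 h is that of its brightest probe alone.

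**Figure D4:**
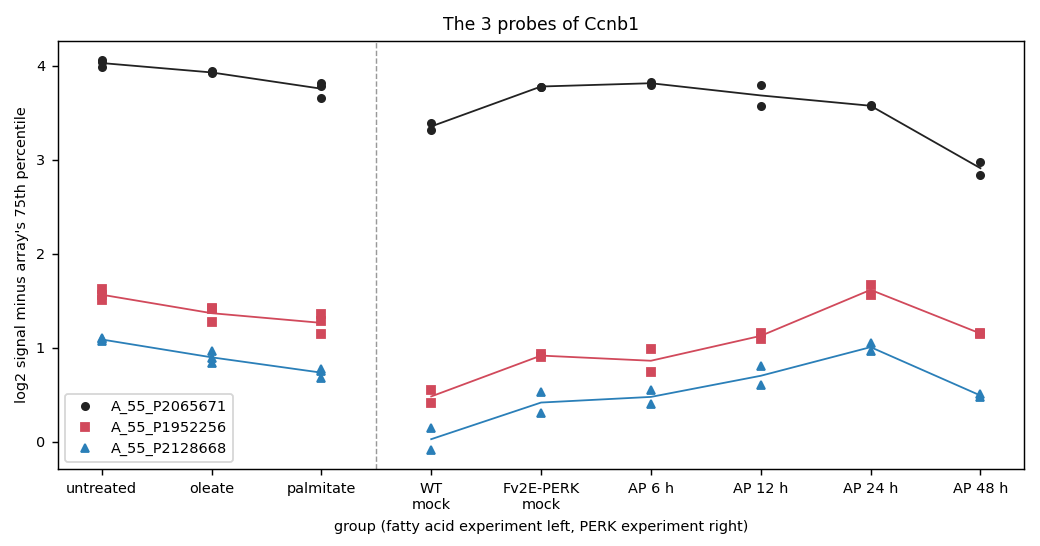
Log2 signal minus the array's 75th percentile (y axis) of the 3 Ccnb1 probes in the 9 groups (x axis); points are single arrays, lines join the group means within an experiment, and the dashed line separates the experiments. All 3 probes are lower with palmitate than untreated, whereas from 6 to 48 h of AP20187 the brightest probe drops from 3.83 and 3.80 to 2.98 and 2.84 and the second is higher at 1.16 and 1.14 than at 0.98 and 0.74.

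For the other 10 genes with several tested probes, no pair was called in opposite directions at 6, 12, 24 or 48 h against mock, with palmitate, or between 6 and 48 h. Some probes differed in being called. At 48 h the second probe of Cdca8 was 0.67 above mock while the first was at 0.02, and the second probe of Tpx2 was at -0.42 (called) while the first was at 0.14. All 3 probes of Birc5 fell at 24 h (-1.23, -1.07 and -0.89) and at 48 h (-1.19, -1.15 and -1.19), as did both probes of Incenp and of Ube2c.

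Fv2E-PERK mock cells also differed from wild-type mock cells. Here 13 members were higher and none lower (36.1%, against 9.23% of all entries higher, 10.8% lower and 20.0% called), with a median of 0.28 against -0.05. Kif2c read -1.06 and -1.10 in wild-type mock and -0.62 and -0.45 in Fv2E-PERK mock (0.55 ± 0.08, adjusted p = 0.0029), and Racgap1 3.05 and 3.11 against 3.64 and 3.62 (0.55 ± 0.06, adjusted p = 8.4e-04). For 34 of 36 members both Fv2E-PERK arrays were above both wild-type arrays, Nek2 and Nuf2 being the exceptions, as for 25.7% of all entries. The 2 groups were on different slides, so genotype and slide cannot be told apart, and the count was 0 with spike-in scaling (median 0.40, against 0.07), 2 without wild-type replicate 1, 2 without Fv2E-PERK replicate 1 and 4 without Fv2E-PERK replicate 2.

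Of other genes of the mitotic machinery, 107 were on the arrays beside the members. With palmitate 51 (47.7%) were lower and 1 higher (median -0.22), where 12.6% of all entries were lower, and with spike-in scaling none was called. The citron kinase Cit (-0.52), Fam83d (-0.51), the kinetochore scaffold Knl1 (-0.51) and the cohesion factor Cdca5 (-0.47) changed most. At 6 h of AP20187 60 (56.1%) were higher and 21 (19.6%) lower, against 24.9% and 40.0% of all entries (75 and 0 with spike-in scaling), and Bora, the activator of Aurora A, led with 1.72 ± 0.07, before the motors Kif18a (1.57) and Kif15 (1.45). At 48 h 34 (31.8%) were higher and 45 (42.1%) lower, near the 27.2% and 34.6% of all entries, and with spike-in scaling 42 were higher and 2 lower. The NDC80 complex subunit Spc25 was at -1.83 ± 0.12 (-1.24 with spike-in scaling). From 6 to 48 h 61 (57.0%) fell and 9 rose, against 27.6% and 33.2% of all entries (36 and 2 with spike-in scaling), Fbxo5 (the APC/C inhibitor EMI1) falling by 1.74 and Kif18a by 1.64.

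Of the 16 transcription factors listed for the mitotic programme, 4 (25.0%, against 12.6% of all entries) were lower and none higher with palmitate. Than in mock, 11 (68.8%, against 24.9%) were higher and 2 lower at 6 h, and 7 (43.8%, against 27.2%) were higher and 1 lower at 48 h. With spike-in scaling none was called with palmitate, 12 were higher at 6 h and 10 at 48 h, and none was lower at either time. Foxm1, the activator of late cell cycle genes, fell by 0.37 with palmitate, rose by 0.35 at 6 h, and fell by 0.43 between 6 and 48 h (both falls without a call under spike-in scaling). Mybl2 (B-MYB) was higher at 6, 24 and 48 h, by 1.19, 1.21 and 0.72. Lin37, a subunit of the MuvB core, was higher by 0.91, 1.36 and 1.14, and E2f4, a DREAM subunit, by 0.61 at 24 h and 0.94 at 48 h. The DREAM pocket protein Rbl1 (p107) rose by 1.12 at 6 h and fell by 1.19 between 6 and 48 h. NF-Y subunit Nfyc was 0.89 above mock at 48 h.

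DNA replication genes, which act in the preceding S phase, were mostly higher with AP20187. At 24 h 26 of 32 (81.2%, against 27.0% of all entries) were higher and 2 lower than mock, and at 48 h 20 (62.5%, against 27.2%) were higher and 6 lower, with a median of 0.50. With spike-in scaling 31 were higher at 24 h and 24 at 48 h, and none lower. The replication initiator Mcm10 was 1.61, 2.34 and 2.21 above mock at 6, 24 and 48 h. From 24 to 48 h 21 replication genes (65.6%, against 23.1% of all entries) fell and 1 rose, or 18 and 0 with spike-in scaling. With palmitate 10 of 31 (32.3%, against 12.6%) were lower and none higher (none called with spike-in scaling), led by the helicase subunit Mcm4 (-0.32) and its activator Cdc45 (-0.30).

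The palmitate and AP20187 comparisons share no arrays. Of the 32 members lower with palmitate, 18 (56.2%) were also lower at 48 h of AP20187, and these were 85.7% of the 21 members lower at 48 h, where 91.4% of all tested members were lower with palmitate. The beta cell markers moved with AP20187 too: 11 of 12 were lower than mock at 6 and 24 h (40.0% and 40.4% of all entries) and 8 at 48 h (34.6%), and 0, 1 and 1 with spike-in scaling. Their summed level was 3110 to 3380 in mock, 1990 to 2140 at 6 h and 2360 to 2540 at 48 h. Acinar and duct markers summed to 5.66 to 8.56 in wild-type mock, 19.7 to 24.4 in Fv2E-PERK mock, 10.6 to 12.6 at 6 h, 15.4 to 17.8 at 12 h, 34.8 to 34.9 at 24 h and 29.6 to 31.7 at 48 h. Among them Spp1 was 2.13 higher and Krt7 was at -1.68 in Fv2E-PERK against wild-type mock. The part of these marker lists in the members' changes was not tested. Heart muscle markers were low in the PERK experiment, with a summed level of 0.166 to 0.508 and 1 to 4 of 9 well above background on every array. Their sum was 0.237 to 0.279 in Fv2E-PERK mock and 0.415 to 0.508 at 48 h. Of the 3 tested, 2 were called higher and none lower at 48 h than in mock, under both scalings, and their part was not tested either.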

How the data were processed

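RNA of 21 samples was measured on one-colour (Cy3) mouse arrays. Per the file headers, the authors extracted spot intensity values with Agilent Feature Extraction 10.7.1.1, with background subtraction and no scaling between arrays. The deposited series matrix holds log2 values of unstated processing. Set against the scanner values, differences between arrays had a slope of 0.998 to 1 (r of at least 0.994), so scale and direction follow, and column medians ran from -0.32 to 0.35, while the baseline and centring stay unknown. Probes (55681) were named through RefSeq accessions of GRCm38.p6, 26576 with a symbol. Here, log2 processed signal minus the array's 75th percentile was tested with limma 3.58.1 (R 4.3.3), each experiment in its own fit, without outlier and control spots, for entries detected (flagged well above background) on every array of some group (21281 and 23388 entries), with Benjamini-Hochberg adjustment at 0.05. Unnamed probes were kept under their accession. Feature Extraction's well-above-background flag served as the detection limit. A bound sets the bright group's mean against the dimmer arrays' lowest detected signal. The number of arrays limits the precision. The script was tested on simulated data. Members, lists and rules were chosen with earlier results of these data known. All members are described, with arrays' values for those changing most and at least 1 of each role. Nothing states that replicates were separate cultures, so p-values cover only between-sample spread, possibly technical. For 1 wild-type mock array title and source name disagree on the replicate number, and the title was used. Same-numbered arrays deviated together weakly at most. Their r was -0.03 to 0.04 (median 0.01) in the fatty acid experiment and -0.01 to 0.13 (median 0.06) in the PERK experiment. Alternatives were normexp on median intensity (offset 50), quantile and spike-in scaling, no filter, mean of probes, series matrix values, a replicate or slide block and leaving arrays out.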

Additional observations from a re-analysis of the deposited data

Results flagged for a closer look

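The change from mock differed between 48 h and 6 h of AP20187 for 33 of the 36 members, by limma's test of the 48 h arrays against the 6 h arrays, and all 33 were lower at 48 h. Over all entries 60.8% were called in that comparison and 27.6% were lower. Between 48 h and 24 h it differed for 31 members (48.8% of all entries), between 12 h and 6 h for 8 (14.7%) and between 24 h and 12 h for 7, or 19.4% of the members against 27.5% of all entries.

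In the chromosomal passenger complex the 48 h minus 6 h differences were -1.89 for Aurkb (not well above background at 48 h, so at least 2.84-fold lower), -1.60 for Incenp, -0.73 for Birc5 and -0.66 for Cdca8. Birc5 was already below mock at 6 h, whereas Incenp and Cdca8 were above it. Among the kinases they were -1.47 for Aurka, -1.09 for Plk1 and -0.43 for Nek2.

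In the cyclin-CDK group they were -0.90 for the brightest probe of Ccnb1, -0.78 for Ccnb2, -0.76 for Cdc25c, -0.72 for Ccna2 and -0.53 for Cdk1. A second probe of Ccnb1 differed by 0.29 in the other direction. In the checkpoint and APC/C group they were -0.96 for Bub1b, -0.71 for Ttk, -0.68 for Cdc20, -0.37 for Mad2l1, -0.31 for Ube2c and -0.29 for Bub1.

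At the kinetochore they were -0.95 for Cenpa, -0.87 for Cenpf, -0.72 for Cenpe, -0.68 for Ndc80 and -0.63 for Nuf2. Of the spindle factors, Nusap1 differed by -1.65, Kif11 by -1.18, Kif2c by -0.67 and Kif4 by -0.25. Of the cytokinesis genes, Kif20a differed by -1.22, Prc1 by -1.16, Kif23 by -0.88, Anln by -0.65 and Racgap1 by -0.37. Mki67 differed by -0.46. The 48 h arrays were on another slide than the 6 h arrays, and the 2 cannot be told apart.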

How the results depend on the processing

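Scaling changed the most. With spike-in scaling the count of members called was 0 for palmitate against untreated (32 with percentile scaling), 0 for palmitate against oleate (25), 0 between 6 and 12 h (8), 1 between 12 and 24 h (7), 0 for Fv2E-PERK against wild-type mock (13), and 12 at 48 h against mock, 8 of them higher. It also turned called members above mock: at 6 h Birc5 (0.21), Ccnb2 (0.37), Cdk1 (0.11), Mad2l1 (0.37), Cenpf (0.04) and Ube2c (0.21), at 12 h Ccnb2 (0.27), Cdk1 (0.12) and Top2a (0.16), at 24 h Aurka (0.68), Incenp (0.21), Ccnb2 (0.13), Cdk1 (0.04), Top2a (0.62), Prc1 (0.62) and Ube2c (0.17), and at 48 h Plk1 (0.05), Mki67 (0.18), Cenpa (0.08) and Cenpe (0.15). Among these turned members Aurka, Top2a and Prc1 at 24 h were called higher with spike-in scaling, and the rest were not called. Of the other mitosis genes 44 were called at 48 h with spike-in scaling, 42 of them higher, a check of the lists added after seeing the data. In the series matrix values both palmitate counts were 0. Without the filter on dim probes the counts were 15 for palmitate against oleate, 4 between 6 and 12 h and 5 between the mocks. With palmitate replicates 1 and 2 left out, the lone palmitate array was on another slide than the untreated and oleate arrays, and no count is given. The causes of these changes in count were not tested. Leaving out 1 array at a time gave 27 to 32 for palmitate against untreated, 14 to 27 against oleate, 20 to 23 at 6 h, 20 to 22 at 12 h, 23 to 23 at 24 h, 21 to 24 at 48 h, 2 to 5 between 6 and 12 h, 3 to 6 between 12 and 24 h, 26 to 30 between 24 and 48 h, 28 to 31 between 6 and 48 h and 2 to 9 between the mocks, where oleate stayed at 0. With the replicate number as a block, a pairing that the arrays bore out weakly at most, the counts were 30 for palmitate against untreated, 28 at 6 h, 25 at 48 h and 32 between 6 and 48 h. Of 3375 values of single called members under an alternative, 2837 kept direction and call, 518 lost the call and 20 turned. A slide block could not be fitted in the PERK experiment. Normexp and a slide block in the fatty acid experiment moved no count by over 1.5 times. Aurkb and Cenpf were the members nearest to background, and n is 2 or 3 arrays a group.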
